A study of Homo sapiens with 6 samples.

Results

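PIM1, PIM2 and PIM3 are the 3 members of the PIM family of serine/threonine kinases, and their mRNA is described here in K562 cells with and without a label of ACK knockout. They were chosen by symbol as a family, but with earlier results of these data known. All 3 were found among the 19498 genes of the deposited table. They passed the filter on low values, as did 16658 genes in all. K562 cells derive from human chronic myeloid leukaemia in blast crisis and depend on the fusion kinase BCR::ABL1. The 6 libraries are 3 biological replicates of K562 labelled WT and 3 of K562 labelled ACK KO, all cultured in RPMI supplemented with 10% fetal bovine serum. ACK, the product of TNK2, is a cytoplasmic tyrosine kinase and an effector of the GTPase Cdc42, and the series places it beside the transcription driven by STAT5. The labels name 1 cell line per genotype and do not say how the knockout was made, so genotype and clone cannot be told apart in any difference below.

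PIM kinases have no regulatory domain, so the amount of each protein largely follows the amount of its mRNA and the stability of the protein. JAK-STAT signalling is their best known inducer, and STAT3 and STAT5, which bind DNA as dimers, raise PIM1 and PIM2 in blood cells. BCR::ABL1 keeps STAT5 active in chronic myeloid leukaemia, and PIM kinases then phosphorylate proteins of survival, translation and the cell cycle such as BAD, EIF4B and the p21 product of CDKN1A.

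The 3 genes lie on 3 chromosomes. In GENCODE 29 on GRCh38, PIM1 (ENSG00000137193.14 in the table) is on the plus strand of chromosome 6 from 37170203 to 37175426, PIM2 (ENSG00000102096.9) on the minus strand of chromosome X from 48913182 to 48919024, and PIM3 (ENSG00000198355.5) on the plus strand of chromosome 22 from 49960513 to 49964080. Each has 6 exons in its longest protein-coding transcript, of 2650, 2075 and 2369 bases. The 250 bases before the RefSeq start of PIM1 and of PIM2 are shown because these 2 members had the larger differences between the groups, and because their mRNA is a textbook target of STAT factors. They are from GRCh38.p14, chr6:37169902-37170151 on the plus strand and chrX:48919025-48919274 on the minus strand, each written 5′ to 3′ along its gene. Capitals mark matches to 4 motifs searched on both strands, the STAT palindrome TTCNNNGAA, the octamer ATGCAAAT, CCAAT and TATAAA, of which the last 3 were chosen after the sequences had been read.
PIM1: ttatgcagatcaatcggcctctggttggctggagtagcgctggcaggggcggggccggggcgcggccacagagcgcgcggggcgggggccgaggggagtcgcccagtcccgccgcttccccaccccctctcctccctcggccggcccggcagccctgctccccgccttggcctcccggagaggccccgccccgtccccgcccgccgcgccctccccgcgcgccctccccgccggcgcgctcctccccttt
PIM2: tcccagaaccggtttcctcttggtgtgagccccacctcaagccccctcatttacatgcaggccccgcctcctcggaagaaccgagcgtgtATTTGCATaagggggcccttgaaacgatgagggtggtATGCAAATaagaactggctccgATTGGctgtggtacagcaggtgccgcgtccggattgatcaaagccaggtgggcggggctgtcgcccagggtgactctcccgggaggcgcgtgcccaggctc

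The PIM1 window held none of the 4 motifs and was 79.6% G and C, above 96.3% of the 35116 RefSeq windows of the same length, whose median was 58.0%. PIM2 was 61.2% G and C and held the octamer 2 times, at positions -160 to -153 and -123 to -116 relative to the start, and CCAAT 1 time. The octamer was present in 1.63% of all windows and 2 or more times in 0.0370% of them, and CCAAT in 32.01%. The STAT palindrome stood in 6.57% of all windows and in none of the 3 PIM windows, and PIM3 (82.0% G and C) held none of the 4 motifs. The PIM3 window, chr22:49960522-49960771, lies before the RefSeq start but inside the GENCODE gene body, which begins at 49960513. These matches describe letters in a short window and say nothing of the binding of a factor.

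Before the members, the libraries were checked as a whole. The values of a library summed to between 43478033 and 53301879. The sequencing depth behind them is unknown. Each SD below is a spread over the 3 libraries of a group. Standard errors and intervals below are those of a log2 difference, from limma fits to the libraries of both groups. TNK2 was at 613 to 829.7 under the WT label and 506 to 741 under the KO label, which overlap, so its mRNA does not check the labels. Of 12 erythroid and megakaryocyte markers with a value, 12 passed the filter. In this list HBE1, ALAS2 and GP1BB rose, by log2 differences of 3.2003, 1.51 and 1.61, ITGA2B fell by 2.93 and 8 did not pass (limma), with a median of 0.11. Over all tested genes 10.3% were called in either direction. GATA1 had means of 9213 and 6958 and did not pass (adjusted p 0.0637, or 0.00256 with the block; limma). It lies 119 kb from PIM2, in a window of genes with a median log2 difference of -0.79. The part of that shift in the GATA1 difference was not tested. The call of ALAS2 did not hold in every fit without 1 library (adjusted p up to 0.0834, limma). These genes, like those of the next list, were named after their values were seen. The summed level of 10 markers of other cell types was 15852 to 22946 under the WT label and 23464 to 32665 under the KO label, mostly from KRT8, KRT18 and EPCAM. Of the 9 of these tested, KRT8 and COL1A1 rose and PECAM1 fell, against the same 10.3% of all tested genes. The part of both lists in the results below was not tested. Both libraries numbered 1 stood apart from the others of their group, with correlations across genes of 0.963 and 0.965 for WT and 0.968 and 0.973 for the KO label, against 0.985 between replicates 2 and 3 of each group. In bulk RNA, fewer cells with a transcript and less of it per cell cannot be told apart.

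PIM1 was the most abundant of the 3 kinases and the most variable. In WT replicates 1 to 3 its normalised read counts stood at 69788, 26467 and 26886, and in KO-labelled replicates 1 to 3 at 22549, 16402 and 14113. WT replicate 1 stood far above the other 5 libraries, and the lowest WT library was still above the highest KO-labelled one. Mean levels were 41047 ± 24892 and 17688 ± 4363 (SD, n = 3 each), and the log2 difference, KO-labelled minus WT, was -1.08 (standard error 0.40, 95% interval -2.04 to -0.13). On the log2(value + 1) scale this is a 2.12-fold lower level, with an adjusted p of 0.157 (limma, Benjamini-Hochberg over 16658 genes), so PIM1 did not pass the threshold of 0.05.

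The wide error of PIM1 came with the replicate number. Replicate 1 exceeded the mean of replicates 2 and 3 by a log2 of 1.39 under the WT label and 0.57 under the KO label. Among tested genes these lie at the 92.5 and 77.9 percentiles. Taken number by number, PIM1 was lower in the KO-labelled library in 3 of 3 comparisons, by log2 differences of -1.63, -0.69 and -0.93. With the replicate number as a block the standard error was 0.16, the 95% interval ran from -1.46 to -0.71 and the adjusted p was 0.00208 (limma). Leaving out both libraries numbered 1 gave -0.81 and an adjusted p of 0.00146 (limma). Without WT replicate 1 alone, and with no block, the log2 difference was -0.62 and the adjusted p 0.114 (limma). The size of the PIM1 difference therefore depends on WT replicate 1, while its sign was negative in each of these fits.

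PIM2, the member with the steadiest WT level, was lower in KO-labelled libraries. Its values were 10762, 11432 and 10733 under the WT label and 4576, 6449 and 6805 under the KO label, the latter lowest in replicate 1. The groups did not overlap, and the highest KO-labelled library was well below the lowest WT one. PIM2 fell from 10976 ± 395 to 5943 ± 1197 (SD, n = 3 each), with a log2 difference of -0.91, a standard error of 0.17, a 95% interval from -1.31 to -0.50 and an adjusted p of 0.0200 (limma). On the log2(value + 1) scale this is a 1.87-fold lower level. By replicate number the log2 differences were -1.23, -0.83 and -0.66. The call was lost without WT replicate 2 (adjusted p 0.0783), WT replicate 3 (0.0839) or KO-labelled replicate 2 (0.0544; limma), with the log2 difference between -1.01 and -0.73 in the 6 fits without 1 library.

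PIM3 was the least abundant member and differed least. It had 1484, 1449.7 and 1279 under the WT label and 1262, 1162 and 1067 under the KO label. The gap between the groups was narrow, from 1279 in the lowest WT library to 1262 in the highest KO-labelled one. Mean levels were 1404 ± 109.6 and 1164 ± 97.5 (SD, n = 3 each), and the log2 difference was -0.27 (standard error 0.14, 95% interval -0.60 to 0.06) with an adjusted p of 0.303 (limma). PIM3 was lower in 3 of 3 comparisons by replicate number, by -0.23, -0.32 and -0.26, and with the block the interval ran from -0.46 to -0.08 and the adjusted p was 0.0350 (limma).

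Among the 3 kinases 1 of 3 thus passed the threshold, where 4.96% of all tested genes were called lower, 5.37% higher and 10.3% in either direction. With the block 3 of 3 passed, where 20% of all tested genes were called lower, 19.7% higher and 39.7% in either direction. With both libraries numbered 1 left out 2 of 3 passed, against 13.8% called lower. Groups that did not overlap, with the KO-labelled libraries lower, were found for 3 of 3 members and for 14.7% of tested genes. The log2 differences of PIM1 and PIM2 lay at the 5.93 and 7.49 percentiles of the 16658 tested genes and that of PIM3 at the 26.5 percentile.

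**Figure D1:**
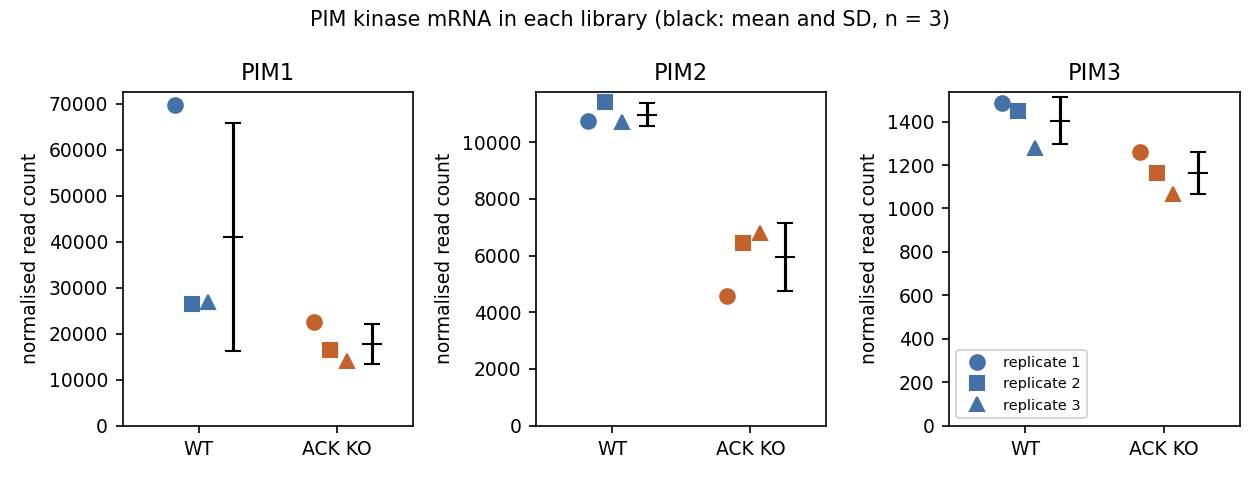
Normalised read counts (vertical axis, linear from 0) of PIM1, PIM2 and PIM3 in 3 WT and 3 ACK KO-labelled libraries, with symbols for the replicate number and black bars for mean and SD. The 3 KO-labelled points lie below the 3 WT points in each panel, and WT replicate 1 stands alone at 69788 for PIM1.

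**Figure D2:**
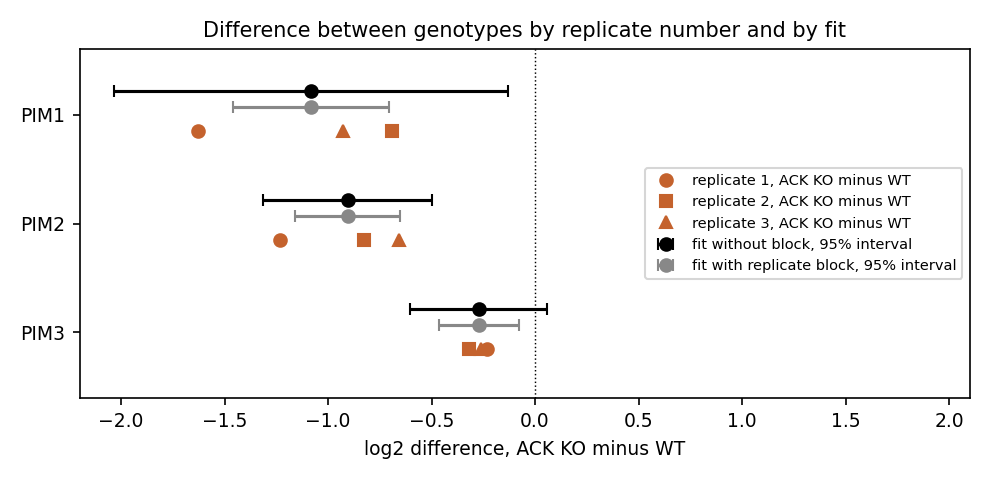
Log2 differences, ACK KO minus WT (horizontal axis), of the 3 kinases, as the fitted value with its 95% interval without (black) and with (grey) the replicate block and as single differences of same-numbered libraries (coloured symbols). The block narrows the interval of PIM1 from -2.04 to -0.13 down to -1.46 to -0.71, and all 9 single differences lie below 0.

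Divided by transcript length, the order PIM1, PIM2, PIM3 held in each of the 6 libraries. Per kilobase of the longest protein-coding transcript, PIM1 stood at 26335, 9987 and 10146 in WT and at 8509, 6189.6 and 5326 in KO-labelled libraries. PIM2 stood at 5187, 5509 and 5172 under the WT label and at 2205, 3108 and 3279 under the KO label, and PIM3 at 540.03 to 626 and 450.2 to 533. The ranges of neighbouring members in this order do not overlap in either group, so the order is clear at the spread seen here. Among 12653 protein-coding genes ranked by mean level per kilobase, PIM1 was at the 99.0 percentile in WT and the 97.7 in KO-labelled libraries, PIM2 at the 96.4 and 92.8, and PIM3 at the 61.4 and 56.4.

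Summed over the 3 kinases, the level per kilobase was 32148, 16109 and 15858 under the WT label and 11247, 9788 and 9055 under the KO label. PIM1 made up 62.0% to 81.9% of the sum in WT and 58.8% to 75.7% in KO-labelled libraries, and the highest share was in replicate 1 of both groups. PIM2 made up 16.1% to 34.2% and 19.6% to 36.2%. PIM3 was a minor part in every library, with 1.95%, 3.80% and 3.41% under the WT label and 4.74%, 5.01% and 4.97% under the KO label.

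Whether the members differed in how they differed between the groups was asked with the within-library log2 ratio of 2 members, which does not depend on gene length. The ratio of PIM1 to PIM2 was 2.697, 1.21 and 1.32 under the WT label and 2.30, 1.35 and 1.052 under the KO label, and replicate 1 was high in both. Its KO-minus-WT difference of -0.18 had an exact two-sided permutation p of 0.7. The ratio of PIM2 to PIM3 was 2.86, 2.98 and 3.07 under the WT label and 1.86, 2.47 and 2.67 under the KO label, which do not overlap. That difference, -0.63, had an exact permutation p of 0.1, as did that of PIM1 to PIM3, -0.81, which was -0.39 without WT replicate 1. By replicate number the differences were -0.9996, -0.51 and -0.40 for PIM2 to PIM3 and -1.40, -0.37 and -0.67 for PIM1 to PIM3. Permuted within replicate numbers both had an exact p of 0.25, the smallest that 3 pairs allow. Over the 3 pairs the adjusted values were 0.7, 0.15 and 0.15 (exact permutation), and 3 against 3 libraries cannot reach a p under 0.1, so no pair could pass 0.05. Without WT replicate 1 the PIM1 to PIM2 difference changed sign to 0.30, and without KO-labelled replicate 3 to 0.08.

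The genes around each PIM gene differed between the 3 loci. A shift of the genes near PIM2 was already known from earlier results of these data. The counts for PIM2 therefore describe a known shift and are not an independent test. Within 500 kb of PIM2, 38 other genes were tested, 30 of them with a log2 difference below 0 and a median of -0.79, while the 536 tested genes of the whole X chromosome had a median of -0.01. Of all tested genes 51.6% lay below 0. Of the 38, 13 fell and 0 rose (limma, adjusted p under 0.05), against 4.96% of all tested genes called lower. With the block 27 fell, against 20% of all tested genes. When both libraries numbered 1 were left out 24 fell and 1 rose, against 13.8% and 14.6% of all tested genes. The number called was 8 when WT replicate 2, WT replicate 3 or KO-labelled replicate 2 was left out and 6 when KO-labelled replicate 3 was. PIM2, at -0.91, ranked 17 from the lowest of these 39 genes and lay 0.12 below the median of its neighbours.

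Over the 38 neighbours of PIM2 the log2 differences ran from -4.89 to 2.75. The lowest, WAS, had 731, 788 and 692 under the WT label and 27.7, 19.0 and 25.7 under the KO label. GAGE13, the highest, overlapped between the groups. The nearest genes on both sides of PIM2 differed from each other. OTUD5, which encodes a deubiquitinase and lies 3.004 kb away, had 5259, 5413 and 4838 under the WT label and 2752, 2782 and 2789 under the KO label. It fell by 0.90 on the log2 scale with a standard error of 0.11 and an adjusted p of 0.00382 (limma), a difference of the same size as that of PIM2 and tighter between replicates. SLC35A2, the UDP-galactose transporter gene 1.22 kb away on the other side, had 1049, 1705 and 1454 under the WT label and 864, 1303 and 1277 under the KO label. These overlap, with a log2 difference of -0.28 and an adjusted p of 0.560 (limma), and 0.0366 with the block. Without WT replicate 1 or 2 or KO-labelled replicate 1 its log2 difference was -0.48, -0.13 or -0.09. Where neighbours overlap each other, their values are uncertain because the sources used here do not say how reads were assigned to genes or strands. The part of the shift of the whole segment in the PIM2 difference was not tested.

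PIM1 and PIM3 stood in windows without such a shift. Of 11 tested neighbours of PIM1, 11 had a log2 difference above 0, with a median of 0.16, and PIM1 at -1.08 was the lowest of the 12 genes. Of all tested genes 51.6% had a log2 difference below 0. The nearest on each side, MTCH1 and TMEM217, had log2 differences of 0.09 and 0.20, with adjusted p-values of 0.760 and 0.738 (limma). Within the PIM1 window 1 gene rose and 0 fell (limma), against 5.37% and 4.96% of all tested genes. With the block the counts were again 1 and 0, against 19.7% and 20%. In both fits the gene was CDKN1A, whose product p21 is itself phosphorylated by PIM kinases, and it lies 483 kb from PIM1. The 22 tested neighbours of PIM3 had a median of 0.01, 11 above and 11 below 0, and 0 were called (limma), against 10.3% of all tested genes. With the block 5 of them were called, 3 higher and 2 lower, against 39.7% of all tested genes called in either direction. CRELD2 and MLC1, the nearest to PIM3, had log2 differences of 0.69 and -0.10 and adjusted p-values of 0.156 and 0.940 (limma), with 0.00401 for CRELD2 under the block.

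**Figure D3:**
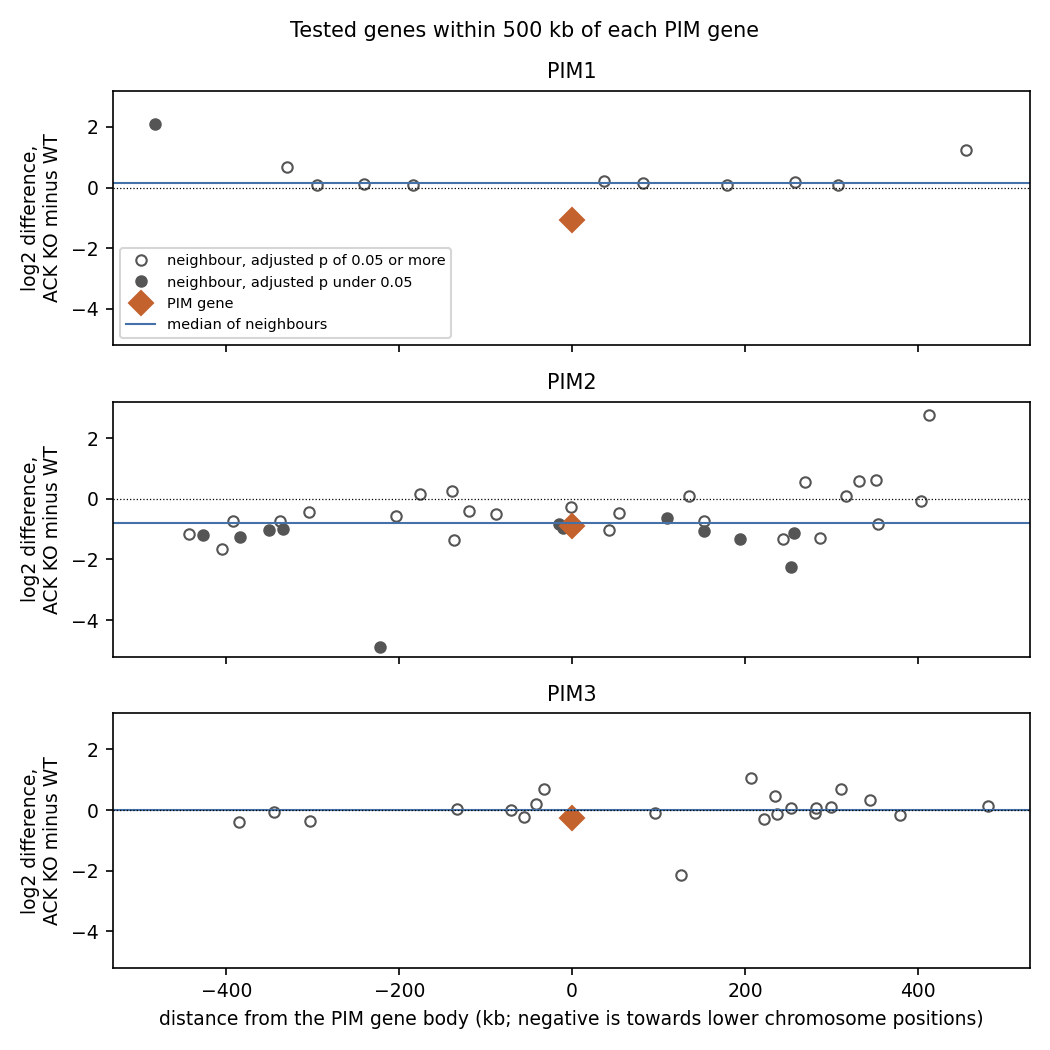
Log2 differences, ACK KO minus WT (vertical axes), of tested genes within 500 kb of each PIM gene against distance in kb from the PIM gene body, with the PIM gene as a diamond, neighbours that passed the threshold filled and the neighbours' median as a line. The median is -0.79 around PIM2, 0.16 around PIM1 and 0.01 around PIM3, and PIM1 lies below all of its neighbours.

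The upstream genes came from a list of 19 inducers and stabilisers of PIM kinases, of which 18 were tested. In this list 2 rose, 3 fell and 13 did not pass, against 5.37% of all tested genes called higher and 4.96% lower. With the block 5 were higher and 6 lower, against 19.7% and 20%. The median log2 difference was -0.15 beside -0.02 over all tested genes. STAT3, a direct activator of PIM1, was at 19592, 14423 and 15342 under the WT label and 10801, 8637 and 8859 under the KO label. It fell by 0.80 on the log2 scale, adjusted p 0.0271 (limma). STAT5A and STAT5B, which the series is about, were named after their values were seen. They had log2 differences of 0.20 (95% interval -0.13 to 0.54) and 0.25 (-0.43 to 0.94), with adjusted p-values of 0.458 and 0.6702 (limma), and 0.0449 for STAT5A with the block.

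Among the kinases upstream, JAK1 rose by a log2 of 0.78 from a mean of 3040 ± 69.9 to one of 5243 ± 404 (SD, n = 3 each; adjusted p 0.00789, limma). BMX, a TEC family tyrosine kinase that phosphorylates PIM1, was low throughout, with 3.85, 1.38 and 6.73 under the WT label and 104, 29.2 and 61.97 under the KO label. It rose, with an adjusted p of 0.0136 (limma) and a log2 difference of 3.71, or 2.85 with a pseudocount of 5. BMX passed the filter on low values through the KO-labelled libraries alone. KLF5, a zinc finger factor, fell from a mean of 209 ± 52.1 to one of 91.2 ± 16.1 (SD, n = 3 each; adjusted p 0.0415, limma). The other call, chosen after its value was seen, was PPP2CA, a catalytic subunit of the phosphatase PP2A that acts on PIM kinases, at -0.80 and an adjusted p of 0.0497, and up to 0.188 without 1 library (limma). PPP2CA is a gene of chromosome 5, where the median log2 difference over 693 tested genes was -0.62. BCR and ABL1, also chosen after their values were seen, had log2 differences of 0.31 and 0.25 and adjusted p-values of 0.117 and 0.243 (limma), and 0.00554 and 0.0197 with the block. Without 1 library the calls (limma) were lost for JAK1 when WT or KO-labelled replicate 3 was left out (adjusted p 0.0517 and 0.0545), for BMX when KO-labelled replicate 3 was (0.0677), for STAT3 when replicate 2 or 3 of either group was (0.05404 to 0.124), and for KLF5 in each of the 6 cases (0.0555 to 0.164). Upper-quartile scaling also ended those of STAT3 (0.0634) and KLF5 (0.0738), and a fit with no intensity trend that of STAT3 (0.0554).

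Downstream, 28 genes of reported PIM substrates were listed and tested, of which 3 rose, 3 fell and 22 did not pass, where 10.3% of all tested genes were called in either direction. The block called 8 higher and 15 lower, where it called 39.7% of all tested genes. Their median log2 difference was -0.21 beside -0.02 over all tested genes. ABCB1, a drug efflux pump, had 11.4, 8.98 and 10.02 under the WT label and 731, 479 and 715 under the KO label. It rose by a log2 of 5.83, adjusted p 9.15e-05 (limma), and belongs to chromosome 7, where the median over 834 tested genes was 0.39. RUNX3, a Runt family transcription factor gene, had 53.3, 68.98 and 59.2 in WT and was listed at 1.18, 0 and 0 in KO-labelled libraries. It fell with an adjusted p of 7.80e-04 (limma), and its log2 difference was -5.56 with a pseudocount of 1, -6.34 with 0.5 and -3.60 with 5. RUNX3 passed the filter on low values through the WT libraries alone.

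The cell cycle inhibitor gene CDKN1A rose, with values of 262, 139.5 and 168 under the WT label and 1398, 415 and 812 under the KO label, and all KO-labelled libraries were higher. Its log2 difference was 2.08 with a standard error of 0.47 and an adjusted p of 0.0358 (limma). MAP3K5, the stress kinase ASK1, fell by 0.72 on the log2 scale from a mean of 1917 ± 99.02 to one of 1169 ± 145 (SD, n = 3 each; adjusted p 0.0234, limma). The other calls, chosen after their values were seen, were a rise of NFATC1 from 877 to 1409.6 and a fall of the chemokine receptor gene CXCR4 from 28.97 to 8.16, with adjusted p-values of 0.0462 and 0.03597, and up to 0.184 and 0.132 without 1 library (limma). BAD, the pro-apoptotic protein that PIM kinases inactivate, was chosen likewise and had 198, 159 and 159.9 under the WT label and 135, 79.2 and 87.3 under the KO label. Its log2 difference was -0.80 with an adjusted p of 0.1405 (limma), and 0.0148 with the block. Of the named calls in this list, ABCB1 and RUNX3 held in each of the 6 fits without 1 library, while MAP3K5 lost its call in all of them but that without WT replicate 1 (adjusted p 0.0542 to 0.113, limma) and CDKN1A in those without WT replicate 2 or 3 or KO-labelled replicate 1 or 3 (0.0691 to 0.136). CDKN1A missed the threshold with upper-quartile scaling (0.0517) and with no trend (0.0544) as well.

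STAT5 target genes, the group to which PIM1 and PIM2 belong, were taken without the PIM genes. The 22 tested ones had a median log2 difference of -0.07, beside -0.02 over all tested genes, and 1 of them rose, 3 fell and 18 did not pass, with 10.3% called among all tested genes. With the block 5 were higher and 7 lower, against 39.7% of all tested genes called. LTB, the lymphotoxin beta gene, fell from 42.7, 83.7 and 205 to 2.94, 0 and 6.07, with an adjusted p of 0.0154 (limma). DUSP6, an ERK phosphatase gene, fell from 29.6, 16.98 and 29.7 to 0, 1.45 and 5.98, with an adjusted p of 0.0358 (limma) and a log2 difference of -3.32, or -2.63 and -4.04 without KO-labelled replicate 1 and 3 and -2.07 with a pseudocount of 5. CCND3, which encodes a D-type cyclin, fell by 0.53 on the log2 scale (adjusted p 0.0486, limma), and the rise was that of CDKN1A. LTB and DUSP6 passed the filter on low values through the WT libraries alone. Without 1 library, LTB lost its call when WT replicate 2 or 3 was left out (adjusted p 0.0553 and 0.0658, limma), and its log2 difference of -4.92 was -4.33 in the latter case, -4.12 and -5.53 when KO-labelled replicate 2 or 3 was left out, and -3.66 with a pseudocount of 5. DUSP6 lost it in all cases but that of KO-labelled replicate 3 (0.0597 to 0.137) and with a pseudocount of 0.5 (0.0508), and CCND3 in all 6 cases (0.0593 to 0.171), with no filter (0.0546), upper-quartile scaling (0.0531) and no trend (0.0996). CISH, the most direct readout of STAT5, was chosen after its values were seen and had 7157, 5045 and 4349.6 under the WT label and 4474, 6069 and 4977 under the KO label, which overlap.

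The AKT and mTOR branch, which shares many substrates with PIM kinases, was given by 23 tested genes. Of these 1 rose, 2 fell and 20 did not pass, close to the 10.3% called over all tested genes. The block called 5 higher and 3 lower, against 39.7% of all tested genes, and the median was -0.02, equal to that over all tested genes at this precision. RICTOR, the defining subunit of mTOR complex 2, fell by 1.04 on the log2 scale from 6916 ± 1395 to 3341 ± 555 (SD, n = 3 each), and PIK3R1, the regulatory p85 alpha subunit of PI3-kinase, fell by 0.82. Both lie on chromosome 5, where the median was -0.62. SGK1, a kinase related to AKT, rose by a log2 of 0.95, and PIK3CG, a catalytic PI3-kinase subunit on chromosome 7, had 0.60 and did not pass. The adjusted p-values (limma) were 0.0177, 0.0168, 0.0274 and 0.0667, the last 0.00218 with the block. RICTOR lost its call without WT replicate 3, KO-labelled replicate 2 or 3 (adjusted p 0.0710 to 0.0861, limma), PIK3R1 without WT replicate 2 or 3 or KO-labelled replicate 3 (0.0665 to 0.0905), and SGK1 without WT replicate 3 or any KO-labelled library (0.0571 to 0.117). PIK3CG passed with upper-quartile scaling (0.0436).

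Early response genes have short-lived mRNA that follows growth signals, as PIM1 does. Of 28 tested, DUSP6 fell, 0 rose and 27 did not pass, where 10.3% of all tested genes were called. Under the block 11 were higher and 6 lower, against 19.7% and 20% of all tested genes. The median log2 difference was 0.23, beside -0.02 over all tested genes. EGR3, IER5 and KLF2 came next by p, with log2 differences of 1.44, 0.47 and -1.27 and adjusted p-values (limma) of 0.0909, 0.0962 and 0.118, and 0.0218, 0.0125 and 0.0269 with the block. EGR3 passed with no trend (0.04998) and IER5 without WT replicate 1 (0.0363; limma). EGR3 passed the filter on low values through the KO-labelled libraries alone. The median excess of replicate 1 over replicates 2 and 3 in this list was -0.02 under the WT label and -0.11 under the KO label, with 13 of 28 above 0 in each.

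**Figure D4:**
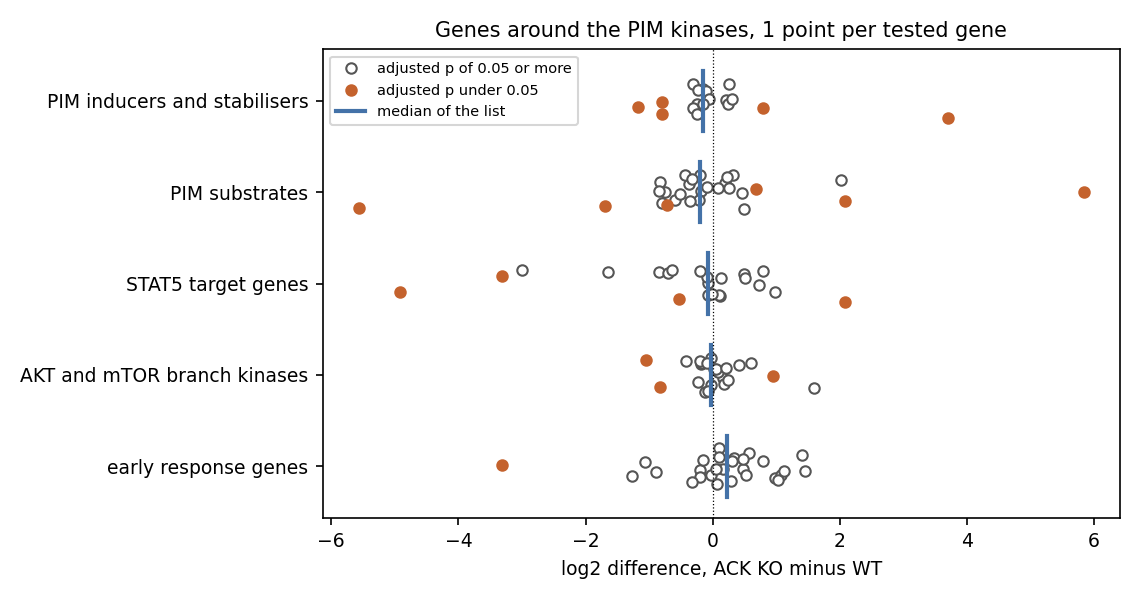
Log2 differences, ACK KO minus WT (horizontal axis), of the tested members of 5 gene lists around the PIM kinases, 1 point per gene, coloured where the adjusted p is under 0.05 and with a bar at the list's median. The medians lie between -0.21 and 0.23, and the largest single differences are those of ABCB1 at 5.83 and RUNX3 at -5.56 among the substrates.

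The genes most like each member over the 6 libraries were found by Pearson correlation of log2(value + 1) among 12159 other genes with a mean of 100 or more. With 6 points from 2 groups high values are common, and 4.52%, 5.25% and 1.88% of genes exceeded 0.9 with PIM1, PIM2 and PIM3. PIM1 was closest to RNF44 (0.999), ERAP1 (0.998) and the unnamed ENSG00000260400 (0.998), which also peaked in WT replicate 1, at 5678 against 3194 and 3211 in the other WT libraries for RNF44. PIM2 was closest to UPF2 (0.999), ELMO1 (0.996) and PRRC1 (0.995), and PIM3 to ASB13 (0.991), RPL41 (0.985) and WDR5B (0.983). RNF44, ERAP1 and PRRC1 lie on chromosome 5, where the median log2 difference was -0.62. The part of that shift in their likeness was not tested. Between members the correlations were 0.56 for PIM1 with PIM2, 0.86 for PIM1 with PIM3 and 0.63 for PIM2 with PIM3.

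After the group means were subtracted, which leaves the differences between replicates, the order changed. PIM1 was then closest to RAB11FIP5 (0.9999), which was higher in KO-labelled libraries, with VN1R81P and RNF44 next. Here 14.2%, 2.38% and 1.69% of the 12159 genes exceeded 0.9 with PIM1, PIM2 and PIM3, so a high value with PIM1 was common. PIM2 was closest to PPP1R10 (0.995), UPF2 and CRTC2, and PIM3 to the unnamed ENSG00000254979 (0.999), IDUA (0.998) and RPLP0 (0.992). The correlation of PIM1 with PIM2 was -0.45 and that of PIM2 with PIM3 was -0.61, while PIM1 with PIM3 stayed positive at 0.67. Within the groups, then, PIM2 was low in KO-labelled replicate 1 where PIM1 was high.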

How the data were processed

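Libraries were made with a stranded mRNA kit that captures polyadenylated RNA, from total RNA with an integrity number of 10, per the labels' protocols. The authors deposited a signal per gene and library, named as normalised counts, on a linear scale and not whole; how it was scaled is not stated. Tools in the submitters' processing notes, named without role or order, are DESeq2 1.26.0, R 3.6.1, Salmon 1.1.0, STAR 2.7.2b, SAMtools and FastQC 0.11.7, and the build is GRCh38. The annotation used and the way reads were counted are not stated there. No whole reads were recovered: 7.42% to 16.5% of low values lay within 0.01 of a multiple of the best step found.

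Symbols came from a name table (19392 of 19498 identifiers) and positions from GENCODE 29 (19112). On the log2(value + 1) scale, limma 3.58.1 (R 4.3.3) was run on 16658 genes with a value of at least 10 in 3 or more of 6 libraries. An intensity trend was fitted. The Benjamini-Hochberg adjustment covered all of them, with 0.05 as the threshold. BMX and EGR3 entered the fit through KO-labelled libraries alone, and RUNX3, LTB and DUSP6 through WT libraries alone. The calls of such genes, which entered only through the group where they were high, are included in the counts given for the lists. The fit without a block was tested on simulated data with independent spread in each library. The alternative fits were not tested in this way. Alternatives were a replicate block, leaving out libraries, pseudocounts of 0.5 and 5, no filter, 2 other scalings and no trend.

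Deviations from group means correlated across genes between same-numbered libraries at 0.699, 0.521 and 0.342. Each was over the limit of 0.1, so the numbers were treated as pairs in the block. WT replicate 2 with KO-labelled replicate 3 (0.281) and WT replicate 3 with KO-labelled replicate 2 (0.257) also passed this limit. Number 1 was thus set apart more clearly than 2 from 3. The labels call the replicates biological but do not say what a number stands for or whether cultures were separate, so a p-value here reflects the spread of these libraries alone, which may be technical. The members and lists were chosen with earlier results of these data known. Other genes named were chosen after their values were seen, including the cell type markers. By rule, named genes are the members, TNK2, up to 4 per list by smallest p, the nearest tested gene on each side of a PIM gene and the 3 most correlated genes, over the libraries and after subtracting group means. Promoter windows are from RefSeq (GRCh38.p14), with 3 of 3 members matched.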

Additional observations from a re-analysis of the deposited data

How the results depend on the processing

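The log2 differences of PIM1, PIM2 and PIM3 were negative in each of the 14 alternatives run. With the replicate block PIM1 (-1.08) and PIM3 (-0.27) passed the threshold, as PIM1 did without both libraries numbered 1 (-0.81), and the block ended none of the calls made without it. Without 1 library the ranges were -1.32 to -0.62 for PIM1, -1.01 to -0.73 for PIM2 and -0.34 to -0.21 for PIM3. The member-pair differences then ran from -0.54 to 0.30 (PIM1 and PIM2), -1.07 to -0.39 (PIM1 and PIM3) and -0.80 to -0.40 (PIM2 and PIM3).

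The number of all genes called, 1721 of 16658, became 6612 (39.7%) with the block and 4731 (28.4%) without both libraries numbered 1, and 726 to 2183 without 1 library. For inducers, substrates, STAT5 targets, the AKT and mTOR branch and early response genes, in this order, the block called 11, 23, 12, 8 and 17 and the fit without both libraries numbered 1 called 8, 15, 8, 8 and 12. The lists had 18, 28, 22, 23 and 28 tested genes. Without 1 library the same lists had 0 to 4, 2 to 6, 0 to 4, 0 to 3 and 0 to 5. Inducers and STAT5 targets had 3 and 2 with upper-quartile scaling and again 3 and 2 without a trend. Early response genes had 2 without a trend and 0 with a pseudocount of 0.5.

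The PIM2 neighbours called, of 38 tested and counted under alternatives chosen after seeing the data, were 27 with the block, 25 without both libraries numbered 1 and 6 to 14 without 1 library. The first 2 counts stand against 39.7% and 28.4% of all tested genes. The median log2 difference of the neighbours was -0.87 to -0.65 without 1 library. Depth is unknown, so the counting error of low values such as those of BMX, RUNX3 and DUSP6, which can be large, cannot be given.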

Other observations

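PIM1 mRNA is known as short-lived, and the pentamer ATTTA is a common element of unstable mRNA, so it was counted after the stop codon in the longest protein-coding GENCODE 29 transcript of each tested gene with at least 100 such bases. PIM1 held 5 in 1335 bases, PIM3 4 in 953 and PIM2 2 in 949. Per kilobase these are 3.75, 4.197 and 2.11, against a median of 1.71 over 12080 genes. PIM3 and PIM1 were at the 86.2 and 81.9 percentiles and PIM2 at the 57.1. At least 5 were found in 32.97% of these genes and at least 2 in 57.6%. These counts describe the annotated transcript and were not tested against the measured differences.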
